A study of Mus musculus with 24 samples.

Results

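Peritoneal macrophages were compared between cells sorted straight from the peritoneal lavage (PMs, ex vivo) and the PM-like cells that grew out of the same kind of lavage in culture (PM-LCs, in vitro). The members are the 6 peritoneal libraries among the 24 of the series, 3 sorted and 3 cultured, chosen by their labels and not by any measured value. All 6 came from female C57BL/6J mice, given as 8 to 12 weeks old by the labels. PMs were sorted by FACS as live CD45+ CD11b+ F4/80+ CD115+ cells. PM-LCs were raised for 14 days in PEI-coated flasks, in high-glucose medium with M-CSF at 3% oxygen, and the lavages of 3 mice were pooled in a flask. The other libraries hold sorted and cultured microglia (MG), Kupffer cells (KCs) and alveolar macrophages (AMs), 3 and 3 of each, and enter only where the culture difference of PMs was set against theirs. RNA was measured by bulk sequencing, and the value of a gene is its normalised read count scaled to library size (CPM). CPM are not corrected for transcript length, so they are compared between libraries and not between genes. Ptprc, Itgam, Adgre1 and Csf1r encode the proteins of the sort and were not read as findings.

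The serous cavities hold a large resident macrophage that patrols the fluid, takes up dying cells and seals injuries of the lining. Its programme depends on the transcription factor GATA6, which is induced by retinoic acid from the mesothelium and the omentum, and on M-CSF for survival. A smaller, monocyte-derived population with MHC class II shares the cavity.

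The libraries held 31369864 to 47105111 counts each, with 16567 to 18288 genes detected and 20.2% to 23.3% of the counts in the 10 most counted genes. Over log2 CPM, the 3 sorted libraries correlated at 0.968 to 0.973, the 3 cultured ones at 0.905 to 0.942, and sorted with cultured ones at 0.708 to 0.796, each over genes of 2 libraries. Each of the cultured libraries stood apart in its own way. PM-LC library 2 was at 90.7 on the second principal component, which held 12.8% of the variance, and the other cultured libraries were at -56.8 and -51.3. Its summed fibroblast markers reached 2136 CPM against 34.0 and 503 CPM in the other cultures and at most 12.7 CPM in the sorted libraries. Its summed mesothelium markers reached 379 CPM against 13.4 and 34.6 CPM in the other cultures and 31.7 to 47.8 CPM in the sorted libraries. The sorted sums were mostly Aldh1a2, at 44.3, 41.1 and 27.8 CPM, which is also described with the retinoic acid genes below. Of the defining mesothelium genes, Msln stood at 0.890, 23.4 and 1.05 CPM in PM-LC libraries 1 to 3 and at 0 in every sorted library, and Wt1, which was too low to be tested, at 0.0574, 8.73 and 2.05 CPM and likewise at 0 when sorted. Markers of B cells summed to 441 CPM in PM-LC library 1 against 34.8 to 160 CPM in the other 5. Where the call of a named gene ended without PM-LC library 2, the adjusted p without it is given, and the part of other cell types in these results was not tested.

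A gene was called carried by a library when it reached at least 5 CPM there and at least 5 times its CPM in each of the other 5. PM-LC library 2 carried 182 genes, PM-LC library 1 carried 21, PM-LC library 3 carried 18, and no sorted library carried any. The 12 with the highest CPM among the 182 were Col1a2 (909 CPM), Sparc (853), Col1a1 (587), Fbln2 (464), Axl (301), Serpinh1 (288), Dcn (288), Cryab (257), Col4a1 (212), Timp1 (205), Acta2 (193) and Ccl2 (188 CPM). Among them Col1a2, Col1a1, Col4a1, Sparc, Fbln2 and Dcn encode collagens and other matrix proteins. Col1a1, a fibrillar collagen, stood at 1.84, 587 and 107 CPM in PM-LC libraries 1 to 3, so library 3 held it as well and library 1 hardly at all. Of the 182 genes 113 could be tested and 67 passed as higher in vitro at an adjusted p under 0.05, and 50 of these still passed without that library. The share over all genes tested was 16.8%. By the rule these genes are highest in a cultured library, so the direction followed from their choice and the shares are not comparable. The list of mesothelium markers held 9 carried genes among its 15, smooth muscle and myofibroblast markers 4 of 10, and fibroblast markers 3 of 18. In the lists below, PM-LC library 2 also carried Cx3cr1 (cavity monocyte and chemokine receptor genes), Itga3 (integrins), Phgdh (ATF4), Serping1 (complement) and Steap4 (iron). These rose, and of them only Itga3 did not pass without that library (adjusted p = 0.0746). PM-LC library 1 carried immunoglobulin and B cell genes, among them Ighm at 160.3, 3.72 and 5.56 CPM and Igkc at 134, 2.22 and 1.30 CPM in libraries 1 to 3. PM-LC library 3 carried inducible genes, of which Egr1 had 30.6, 60.3 and 2026 CPM, Cxcl2 92.1, 123 and 1905 CPM and Ifnb1, the gene of interferon beta, 0.488, 3.20 and 27.9 CPM in libraries 1 to 3. Summed mast cell markers were higher in the sorted libraries, at 70.2 to 92.5 CPM against 1.3 to 4.8 CPM in the cultured ones. Monocyte markers summed to 650 to 1107 CPM in sorted and 67 to 148 CPM in cultured libraries. Most of the sorted monocyte sum was F13a1 alone, at 548, 1018 and 685 CPM, which is also a coagulation gene. The sums therefore say little on the other monocyte markers.

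**Figure D1:**
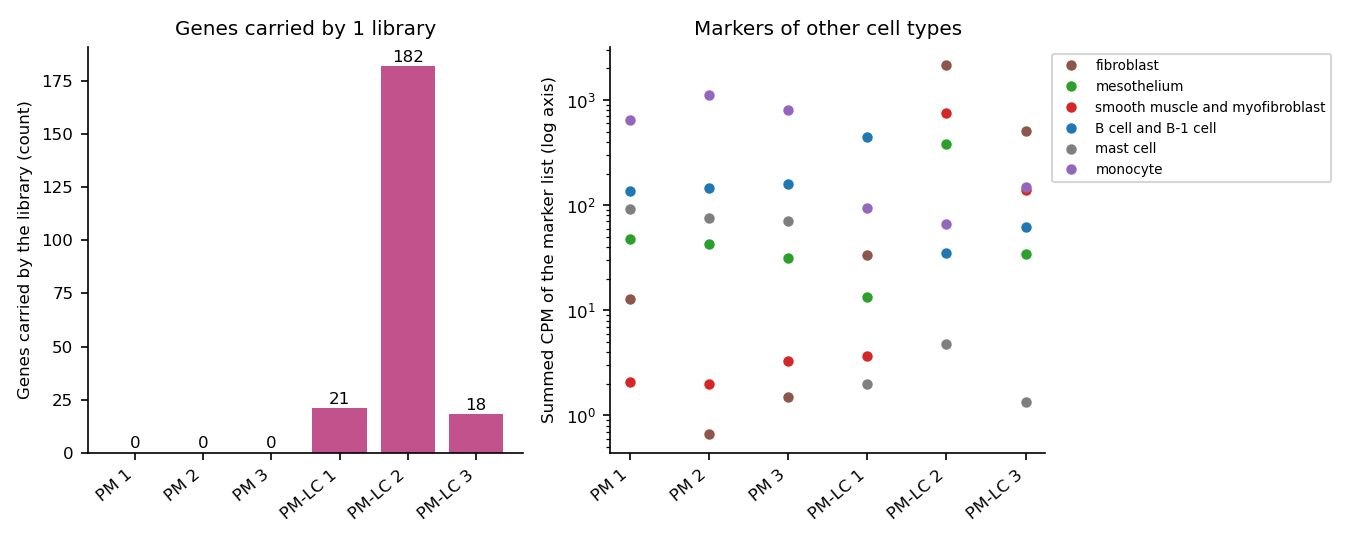
Left, the number of genes carried by each of the 6 libraries (at least 5 CPM and 5 times every other library), and right, the summed CPM of 6 marker lists in each library on a log axis (sorted PM 1 to 3, cultured PM-LC 1 to 3). PM-LC library 2 carried 182 genes and is highest for fibroblast, mesothelium and smooth muscle markers, and PM-LC library 1 is highest for B cell markers.

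The 3 markers of the population checked the sorted libraries first. Gata6, the transcription factor of large peritoneal macrophages, was at 133, 132 and 127 CPM in the sorted libraries and at 3.88, 24.5 and 18.1 CPM in PM-LCs (log2 fold change -3.07 ± 0.60, adjusted p = 0.00879). Prg4, which encodes the joint and serosal lubricant lubricin, went from 5129, 4856 and 5105 CPM to 18.6, 1.70 and 13.7 CPM (log2 fold change -8.79 ± 0.95, adjusted p = 0.000724). Icam2, an adhesion molecule of these cells, went from 963, 927 and 946 CPM to 53.8, 39.1 and 36.6 CPM (log2 fold change -4.45 ± 0.22, adjusted p = 3.55e-05). All 3 fell, no cultured library overlapped with a sorted one for any of them, and a residue of each stayed detectable in every culture. In bulk libraries, fewer cells of a type and less RNA per cell cannot be told apart.

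Adjusted p-values come from edgeR's quasi-likelihood test over all 13581 genes tested, with Benjamini-Hochberg adjustment, and log2 fold changes are in vitro minus ex vivo with their SE. A gene rose or fell where its adjusted p was under 0.05. Of all genes tested, 16.8% were higher in vitro and 12.1% higher ex vivo by this rule, 28.9% in all. With a log2 fold change over 1.5 as well, the shares were 10.2% and 7.57%, and 17.7% in all. The 3 and 3 libraries did not overlap for 48.9% of the genes, with the cultured ones above for 24.7% and the sorted ones above for 24.2%. These shares are the background for every count below. Each library was also left out in turn, and for the lists below square brackets give the lowest and highest count over these 6 fits wherever a library moved it by more than 1.5 times, with the libraries that did. The filter on low counts was rerun in each fit, so the number of members tested changed. A count in brackets can therefore exceed the number tested with all 6 libraries. Without 1 sorted library, 1261 to 1388 of the 2284 genes higher in vitro and 789 to 878 of the 1637 higher ex vivo were still called. Of 198 genes named here that passed, 156 passed without each library in turn and 42 did not. Ccl7, Cxcl1, Cx3cr1, Itga3, Phgdh, Serping1 and Steap4, named only for the library that carried them, were not among the 198. Among the 42 are Acta2, Ccl2, Col1a1, Col1a2, Col4a1, Cryab, Dcn, F2r, Fbln2, Mmp14, Serpinh1, Timp1 and Timp3, which PM-LC library 2 carried, and Cxcl2, Ifnb1, Il1a, Msln and Tnfaip3, with adjusted p-values of 0.0523 to 0.144 without any 1 sorted library. Timp1 and Mmp14 also did not pass without PM-LC library 2 (0.0834 and 0.0544). Without PM library 2 or 3 neither Sparc (0.0663 and 0.0737) nor Plat (0.103 and 0.108) passed. For the other 22 a second adjusted p stands beside the result. Nothing in the labels ties a library to single mice or to separate flasks, so the p-values measure the spread between these libraries.

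The lists of other cell types were counted in the same way. Of 10 fibroblast markers tested 8 rose and none fell [2 to 14 rose, PM libraries 1, 2 and 3 and PM-LC library 1], of 11 mesothelium markers 6 rose and none fell [2 to 8 rose, PM libraries 1, 2 and 3, and 0 to 1 fell, PM-LC library 2], and of 4 smooth muscle and myofibroblast markers 3 rose and none fell [0 to 8 rose, PM libraries 1, 2 and 3 and PM-LC library 1]. Of 9 B cell markers 1 rose and 1 fell [1 to 3 fell, PM-LC library 1], and of 6 mast cell markers 1 rose and 5 fell [0 to 1 rose, PM libraries 1 and 3, and 3 to 6 fell, PM libraries 1 and 2]. Of 8 monocyte markers 1 rose and 3 fell [0 to 2 rose, PM libraries 2 and 3 and PM-LC library 3], of 7 dendritic cell markers 2 fell [1 to 2 fell, PM libraries 1, 2 and 3 and PM-LC library 1], and of 5 endothelial markers 2 rose and 1 fell [0 to 1 fell, PM libraries 1, 2 and 3 and PM-LC libraries 1 and 3]. In the lists of T and NK cells [0 to 1 rose, PM libraries 1, 2 and 3 and PM-LC library 1, and 0 to 1 fell, PM-LC library 1], eosinophils [1 to 2 rose, PM-LC library 2], neutrophils [1 to 2 rose, PM-LC library 3], platelets [0 to 1 rose, PM libraries 2 and 3] and erythroid cells 2 or 3 genes each could be tested, of which at most 1 rose and 1 fell. The eosinophil and platelet genes that fell were Alox15 and Pf4, and the eosinophil granule genes Epx and Prg2 were at 0 in all 6 libraries.

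Of 30 genes that mark the identity of large peritoneal macrophages, all tested, 25 fell, 1 rose and 4 did not pass, with a median log2 fold change of -4.75. The genes were listed for their level in sorted PMs, with earlier results of these data known. Such a choice favours falls, so these counts are a description. The scavenger receptor gene Marco was at 529, 886 and 819 CPM ex vivo and 1.84, 1.03 and 1.09 CPM in vitro (log2 fold change -9.14 ± 0.41, adjusted p = 2.63e-05). Alox15, the 12/15-lipoxygenase and one of the most counted genes of sorted PMs, went from 14368, 14006 and 12567 to 53.6, 1.86 and 36.8 CPM (log2 fold change -8.79 ± 1.24, adjusted p = 0.0023). Timd4, a receptor for phosphatidylserine on dying cells, went from 1477, 1486 and 1084 to 5.89, 0.639 and 3.95 CPM (log2 fold change -8.59 ± 0.85, adjusted p = 0.000492). For each of these genes the cultures held under 1% of the sorted level, and PM-LC library 2 was the lowest of the 3. The B cell attractant Cxcl13 went from 5371, 4306 and 4669.7 to 18.9, 1.89 and 17.7 CPM. The protease inhibitor Slpi went from 5607, 4591 and 4766 to 22.4, 68.2 and 19.8 CPM. Selp, the adhesion receptor P-selectin, was at 1194, 1319 and 1080.3 CPM ex vivo and 4.74, 5.50 and 2.91 CPM in vitro (log2 fold change -8.10 ± 0.34, adjusted p = 2.63e-05). Ltbp1, which binds latent TGF-beta, went from 1543, 1956 and 1516 to 12.1, 6.64 and 9.58 CPM. The ligand gene Tgfb2 went from 337, 363 and 405 to 6.32, 2.36 and 19.6 CPM (log2 fold change -5.28 ± 0.77, adjusted p = 0.00256). Fcna, a ficolin of the lectin pathway, went from 1026, 1518 and 1317 to 34.00, 29.4 and 38.7 CPM. Vsig4, a receptor for complement C3 fragments, fell less, from 601, 599 and 514 to 55.1, 14.5 and 92.8 CPM (log2 fold change -3.40 ± 0.61, adjusted p = 0.00629). The exception in direction was Cd9, a tetraspanin, which rose from 940.0, 715 and 857 to 1654, 1701 and 1244 CPM (log2 fold change 0.87 ± 0.20, adjusted p = 0.0154, 0.0579 to 0.0833 without PM libraries 1, 2 or 3).

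**Figure D2:**
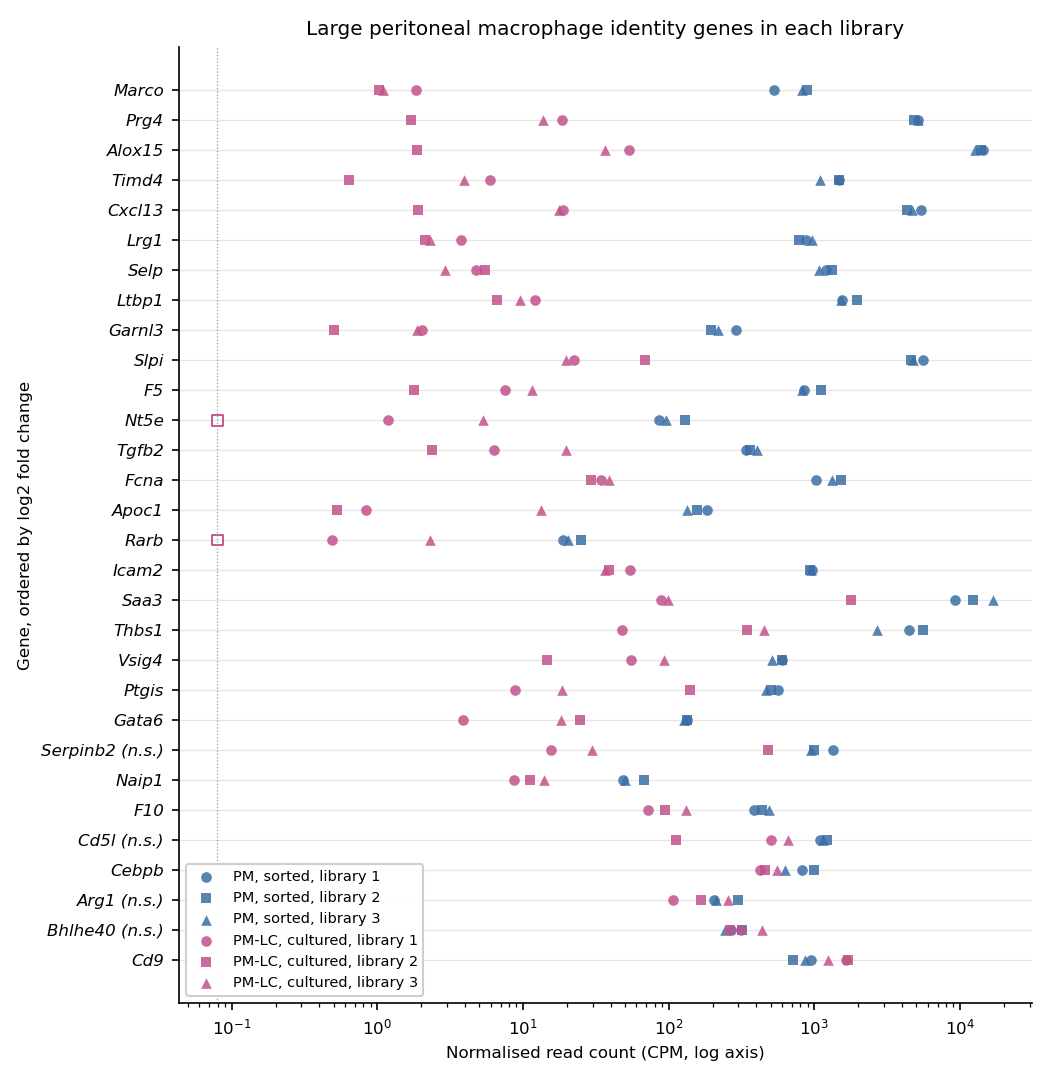
Normalised read count of 30 identity genes of large peritoneal macrophages in each of the 3 sorted (blue) and 3 cultured (pink) libraries, on a log axis, ordered by log2 fold change. Hollow symbols at the dotted line stand for values under the mean floor of 3 counts, and n.s. marks the 4 genes that did not pass. The sorted libraries lie together, and the cultured libraries spread over a wider range, with library 2 (squares) apart for Saa3, Ptgis and Serpinb2.

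The adjusted p of a few identity genes turned on PM-LC library 2. Saa3, an acute phase apolipoprotein, was at 9225, 12200.0 and 16882 CPM ex vivo and at 87.9, 1796 and 98.5 CPM in PM-LC libraries 1 to 3, and its adjusted p moved from 0.0383 to 1.79e-05 without library 2. Ptgis, the prostacyclin synthase, stood at 8.84, 141 and 18.5 CPM in vitro against 559, 502 and 467 CPM ex vivo, and its adjusted p moved from 0.0453 to 7.29e-05. Serpinb2, a plasminogen activator inhibitor, stood at 15.6, 479 and 29.6 CPM against 1342, 989 and 940.4 CPM and did not pass (adjusted p = 0.138), but did without library 2 (adjusted p = 5.61e-05). In all 3 cases library 2 held the high value among the cultures, and all cultured libraries were below all sorted ones. For Cd5l, a secreted scavenger protein, library 2 was the lowest, with 500.1, 112 and 661 CPM in vitro against 1086, 1219 and 1138 CPM ex vivo (adjusted p = 0.0943, and 0.00576 without library 2). Arg1 and Bhlhe40 had overlapping groups and did not pass. Saa3 and Ptgis did not pass when any 1 sorted library was left out, with adjusted p-values of 0.089 to 0.109 and 0.103 to 0.122. Without PM-LC library 1 both calls ended as well (0.0642 and 0.0581), and that of Ptgis also without PM-LC library 3 (0.0752). Without library 2, 27 of the 30 genes were lower in vitro and 1 was higher.

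Among all genes, those with the largest fall by the naming rule were Retnla, Mlxipl, Marco, Prg4, Alox15, Gbp2b, Timd4, Cxcl13, Pi16, Gm13986, Lrg1, Lyve1, Ccm2l, Wnt2 and Prtn3. Several of these are not in the identity list. Mlxipl, the glucose-responsive transcription factor ChREBP, was at 188, 157 and 210.1 CPM ex vivo and 0.144, 0.417 and 0.372 CPM in vitro (log2 fold change -9.19 ± 0.40, adjusted p = 2.63e-05). The Wnt ligand gene Wnt2 was at 354, 342 and 311 CPM and 1.23, 0.973 and 1.14 CPM (log2 fold change -8.23 ± 0.22, adjusted p = 1.76e-05). Gbp2b, an interferon-inducible GTPase gene, went from 253, 430.4 and 349 to 1.46, 0 and 0.930 CPM, and Prtn3, a serine protease gene of granules, from 209.8, 137 and 211 to 0.976, 0 and 0.860 CPM. Lyve1, a hyaluronan receptor of some resident macrophages, went from 60.8, 93.02 and 49.95 to 0.316, 0 and 0.302 CPM. Gm13986, annotated as a processed transcript at chr2:117857291-118111202 (mm10, minus strand), went from 52.6, 26.9 and 38.8 to 0.201, 0 and 0.139 CPM. Ednrb, the endothelin receptor type B, went from 2176, 2548 and 2194 to 11.7, 1.89 and 10.5 CPM (log2 fold change -8.16 ± 0.76, adjusted p = 0.000381).

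Retinoic acid is the signal that maintains GATA6, so the genes of its handling were described as a group. Of 22 listed genes 17 could be tested, and 6 rose, 6 fell and 5 did not pass [3 to 7 fell, PM libraries 1 and 2]. The 3 retinoic acid receptor genes fell. Rara was at 58.8, 67.2 and 73.1 CPM ex vivo and 10.2, 7.51 and 19.8 CPM in vitro (log2 fold change -2.41 ± 0.37, adjusted p = 0.00333), Rarb at 18.9, 24.9 and 20.2 and 0.488, 0 and 2.30 CPM (log2 fold change -4.49 ± 1.16, adjusted p = 0.0257, 0.0754 to 0.0925 without PM libraries 1, 2 or 3 or PM-LC library 1), and Rarg at 64.4, 85.3 and 65.9 and 3.99, 3.25 and 11.02 CPM (log2 fold change -3.56 ± 0.50, adjusted p = 0.00219). Cyp26a1, a retinoic acid hydroxylase and a common readout of the signal, fell from 21.01, 18.02 and 6.49 to 0.0287, 0.806 and 0 CPM (log2 fold change -5.77 ± 1.36, adjusted p = 0.0184, 0.0711 to 0.0835 without PM libraries 1 or 2). Cyp26b1 fell from 3.36, 3.04 and 2.53 to 0, 0 and 0.0465 CPM. The partner receptors Rxra and Rxrb, at 88.6, 57.8 and 139 and 69.2, 68.8 and 65.1 CPM in vitro, did not pass (adjusted p = 0.492 and 0.499). Stra6l, a receptor for retinol-binding protein, had no count in any sorted library and 48.4, 37.5 and 57.2 CPM in vitro, at least 600.4-fold above a floor of 3 counts per library. Fabp5, a carrier of fatty acids and retinoic acid, rose from 177, 119.5 and 136 to 1498, 1455 and 739 CPM (log2 fold change 3.10 ± 0.33, adjusted p = 0.000643). The retinal reductase gene Rdh11 rose from 7.33, 7.59 and 7.55 to 42.9, 25.9 and 43.7 CPM (log2 fold change 2.32 ± 0.26, adjusted p = 0.000862). Aldh1a1 and Aldh1a2 encode enzymes that make retinoic acid from retinal. Aldh1a1 was at 0.0303, 0 and 0 CPM ex vivo and 0.287, 14.9 and 7.07 CPM in vitro, with a single read in the sorted libraries and least in PM-LC library 1 (adjusted p = 0.00887, 0.00943 without PM-LC library 2, and 0.0503 to 0.0583 without 1 sorted library). Aldh1a2 was at 44.3, 41.1 and 27.8 CPM ex vivo and 0.201, 16.3 and 4.98 CPM in vitro and did not pass (adjusted p = 0.142, and 0.0226 without library 2).

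Of 21 eicosanoid genes tested out of 23, 8 fell and 4 rose. The leukotriene branch was low in culture. Alox5, the 5-lipoxygenase, went from 484, 566 and 471 to 4.71, 9.31 and 8.79 CPM (log2 fold change -6.06 ± 0.33, adjusted p = 4.97e-05). Its partner Alox5ap went from 427, 424 and 449.9 to 75.7, 116 and 90.8 CPM (log2 fold change -2.21 ± 0.20, adjusted p = 0.000357). The leukotriene C4 synthase Ltc4s went from 340.4, 349 and 360.0 to 1.87, 1.20 and 0.814 CPM (log2 fold change -8.09 ± 0.37, adjusted p = 2.81e-05). The receptor gene Cysltr1 fell as well, from 89.1, 86.2 and 92.9 to 22.3, 11.4 and 19.9 CPM (log2 fold change -2.32 ± 0.27, adjusted p = 0.00103). The cyclooxygenases crossed over. Ptgs1, the constitutive form, was at 689, 721 and 673 CPM ex vivo and 6.80, 95.04 and 28.4 CPM in vitro (log2 fold change -3.999 ± 0.86, adjusted p = 0.0131), and Ptgs2, the inducible form, at 0.303, 0 and 0 CPM and 51.2, 66.96 and 107 CPM (log2 fold change 9.64 ± 1.02, adjusted p = 0.000643). Hpgds, a prostaglandin D synthase, rose from 0.908, 1.13 and 0.762 to 273, 173 and 233 CPM (log2 fold change 7.92 ± 0.31, adjusted p = 2.63e-05), and Hpgd, which breaks prostaglandins down, from 4.87, 3.56 and 6.10 to 64.4, 50.4 and 70.05 CPM (log2 fold change 3.67 ± 0.28, adjusted p = 0.000176). No cultured library overlapped with a sorted one for any of these 8 genes.

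Coagulation and complement genes, which these cells bring into the cavity fluid, moved in both directions. Of 22 coagulation and fibrinolysis genes tested out of 26, 7 fell and 8 rose [5 to 9 rose, PM libraries 2 and 3]. F5 went from 846, 1103 and 823 to 7.49, 1.78 and 11.6 CPM (log2 fold change -7.05 ± 0.72, adjusted p = 0.000565), F10 from 386, 436 and 486 to 72.5, 94.6 and 132 CPM (log2 fold change -2.13 ± 0.25, adjusted p = 0.00109) and F13a1, the factor XIII subunit, from 548, 1018 and 685 to 5.02, 7.92 and 47.1 CPM (log2 fold change -5.23 ± 0.93, adjusted p = 0.006). F7 did not pass at 112, 123 and 151 CPM against 102, 136 and 133 CPM. Procr, the protein C receptor, rose from 0.696, 0.810 and 0.172 to 38.4, 43.9 and 33.01 CPM (log2 fold change 6.10 ± 0.55, adjusted p = 0.000333). The urokinase gene Plau rose from 1.76, 1.77 and 2.07 to 9.33, 12.2 and 20.02 CPM (log2 fold change 2.89 ± 0.38, adjusted p = 0.00174). Of the 8 that rose, Plat, F2r and F11r were carried by PM-LC library 2, and Plat did not pass without it (adjusted p = 0.0639). Of 23 complement genes tested out of 25, 9 fell and 8 rose [2 to 8 rose, PM libraries 1, 2 and 3]. C4b went from 4946, 7504 and 5077 to 58.2, 34.7 and 49.1 CPM (log2 fold change -6.95 ± 0.34, adjusted p = 3.49e-05), factor B (Cfb) from 21.6, 32.6 and 26.3 to 0.230, 0.584 and 0.0232 CPM (log2 fold change -6.60 ± 0.81, adjusted p = 0.00127) and properdin (Cfp) from 4981, 4614 and 4624 to 147, 205 and 275 CPM (log2 fold change -4.50 ± 0.28, adjusted p = 7.76e-05). The C1q chains fell, with C1qa at 3495, 3376 and 3194 and 1332, 1150.4 and 1614 CPM (log2 fold change -1.30 ± 0.18, adjusted p = 0.00221) and C1qb at 6154, 6702 and 6103 and 4204, 4009 and 4409.9 CPM (log2 fold change -0.59 ± 0.15, adjusted p = 0.024, 0.0627 to 0.0866 without PM libraries 1, 2 or 3 or PM-LC library 1). C3ar1, the anaphylatoxin receptor, rose from 448, 514 and 473 to 1806, 1007 and 2456 CPM (log2 fold change 1.88 ± 0.32, adjusted p = 0.00502).

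The 10 genes that took the largest share of counts in PM-LCs were Ctsd, Fth1, Ctsb, Lyz2, Gpnmb, Apoe, Mmp12, Lgals3, Ctss and Psap, and in sorted PMs they were Lyz2, Apoe, Fn1, Alox15, Saa3, Actb, H2-D1, C1qb, C4b and C1qc. Gpnmb, a glycoprotein of lysosomes and melanosomes at chr6:49036546-49070929, was at 8.24, 3.61 and 6.22 CPM ex vivo and 20100.2, 15873 and 26389 CPM in vitro (log2 fold change 11.75 ± 0.51, adjusted p = 2.63e-05). Mmp12, the macrophage elastase at chr9:7344381-7369499, was at 4.42, 1.60 and 2.29 CPM and 17043, 15167 and 18511 CPM (log2 fold change 12.58 ± 0.55, adjusted p = 2.63e-05). Its neighbour Mmp13, a collagenase at chr9:7272514-7283331, was at 0.151, 0.319 and 0 CPM and 1026, 597 and 1369 CPM (log2 fold change 12.60 ± 0.90, adjusted p = 0.000132), and Mmp8, in the same stretch of chromosome 9, at 0.636, 0.491 and 2.07 and 47.5, 29.3 and 101 CPM (log2 fold change 5.79 ± 0.76, adjusted p = 0.00164). These coordinates are of the mm10 build. All 3 proteases rose from a handful of CPM or less, and all 3 cultures took part in each rise. Lgals3, a galectin, rose from 287, 269 and 291 to 14140.0, 14153 and 9971 CPM (log2 fold change 5.50 ± 0.23, adjusted p = 2.63e-05). The lysozyme gene Lyz2 fell, from 103725, 96911 and 97751 to 19842, 30169.7 and 24696 CPM (log2 fold change -1.998 ± 0.20, adjusted p = 0.000508), and Apoe from 43706, 47314 and 48451 to 15843, 11669 and 26955 CPM (log2 fold change -1.36 ± 0.31, adjusted p = 0.0156, 0.0529 to 0.0588 without PM libraries 2 or 3 or PM-LC library 1).

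Of 49 lysosomal hydrolases and their activators, 28 rose and 4 fell, with a median log2 fold change of 0.72 [18 to 29 rose, PM libraries 1 and 3, and 1 to 7 fell, PM libraries 1, 2 and 3 and PM-LC libraries 1 and 3]. The aspartic protease gene Ctsd went from 4434, 4840.0 and 4761 to 40442, 43474 and 42937 CPM (log2 fold change 3.18 ± 0.16, adjusted p = 3.55e-05). The cysteine protease gene Ctsb went from 4040.4, 4697 and 4735 to 28538, 24691 and 27069.7 CPM (log2 fold change 2.58 ± 0.17, adjusted p = 9.38e-05) and Ctsl from 337, 267 and 327 to 3017, 3132 and 2879 CPM (log2 fold change 3.28 ± 0.18, adjusted p = 4.91e-05). Lipa, the acid lipase that frees cholesterol from esters, went from 271, 347 and 324 to 3825, 2334 and 3969 CPM (log2 fold change 3.43 ± 0.26, adjusted p = 0.000177). The alpha-galactosidase gene Gla went from 9.33, 12.2 and 12.7 to 405, 279.8 and 264 CPM (log2 fold change 4.79 ± 0.27, adjusted p = 4.97e-05). Ctsc, Arsa, Glb1 and Smpd1 fell, the first from 842, 934 and 866 to 271, 316 and 529 CPM (log2 fold change -1.24 ± 0.27, adjusted p = 0.013, 0.0555 without PM library 2). Glb1 and Smpd1 did not pass without any 1 sorted library or without PM-LC library 1 or 2 (adjusted p = 0.0629 to 0.150 and 0.0618 to 0.137). Of 18 genes of the V-ATPase, the proton pump of the lysosome, 17 rose, none fell, and the median log2 fold change was 1.62. Atp6v0d2, a subunit of macrophages and osteoclasts, was at 0.757, 0.221 and 0.664 CPM and 1754, 1257 and 1579 CPM (log2 fold change 11.46 ± 0.54, adjusted p = 3.03e-05). Atp6v1a, the catalytic subunit, rose from 167, 164 and 183 to 1062, 700.2 and 1099 CPM (log2 fold change 2.48 ± 0.22, adjusted p = 0.000321). Atp6v0a2 alone did not pass, at 59.2, 43.5 and 71.8 CPM against 34.2, 55.1 and 40.4 CPM (adjusted p = 0.263). Without PM-LC library 2, 15 of the 18 passed, all higher in vitro.

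Of 24 lysosomal membrane proteins and regulators, 12 rose and 3 fell [1 to 3 fell, PM libraries 1, 2 and 3 and PM-LC library 1]. The tetraspanin Cd63 rose from 87.3, 80.8 and 90.3 to 1887, 2464 and 1213 CPM (log2 fold change 4.43 ± 0.30, adjusted p = 0.000112) and Lamp1 from 1702, 1923 and 1726 to 3490.0, 3527 and 3424 CPM (log2 fold change 0.96 ± 0.15, adjusted p = 0.00336). Of the transcription factors that drive lysosome genes, Tfeb rose from 24.7, 27.4 and 27.3 to 68.4, 65.1 and 88.2 CPM (log2 fold change 1.48 ± 0.19, adjusted p = 0.00146) and Mitf from 17.3, 18.95 and 19.3 to 67.3, 32.02 and 110.3 CPM (log2 fold change 1.92 ± 0.42, adjusted p = 0.0137, 0.0577 to 0.0641 without PM libraries 1, 2 or 3). Tfe3, a related factor, did not pass (adjusted p = 0.502). Laptm5, a lysosomal protein of blood cells, fell from 4620.4, 4889 and 4333 to 1513, 1698 and 2225 CPM (log2 fold change -1.35 ± 0.19, adjusted p = 0.00253). Of 17 genes of osteoclasts and cell fusion tested out of 21 listed, 10 rose and none fell [5 to 11 rose, PM libraries 2 and 3, and 0 to 1 fell, PM-LC libraries 1 and 2]. Dcstamp, which is needed for macrophages to fuse, had no count in any sorted library and 38.8, 37.1 and 46.2 CPM in vitro, at least 512-fold above the floor. The acid phosphatase gene Acp5 rose from 1.67, 1.94 and 2.58 to 22.6, 36.7 and 42.5 CPM (log2 fold change 4.04 ± 0.34, adjusted p = 0.000263). Nfatc1, the main osteoclast factor, did not pass (adjusted p = 0.301).

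**Figure D3:**
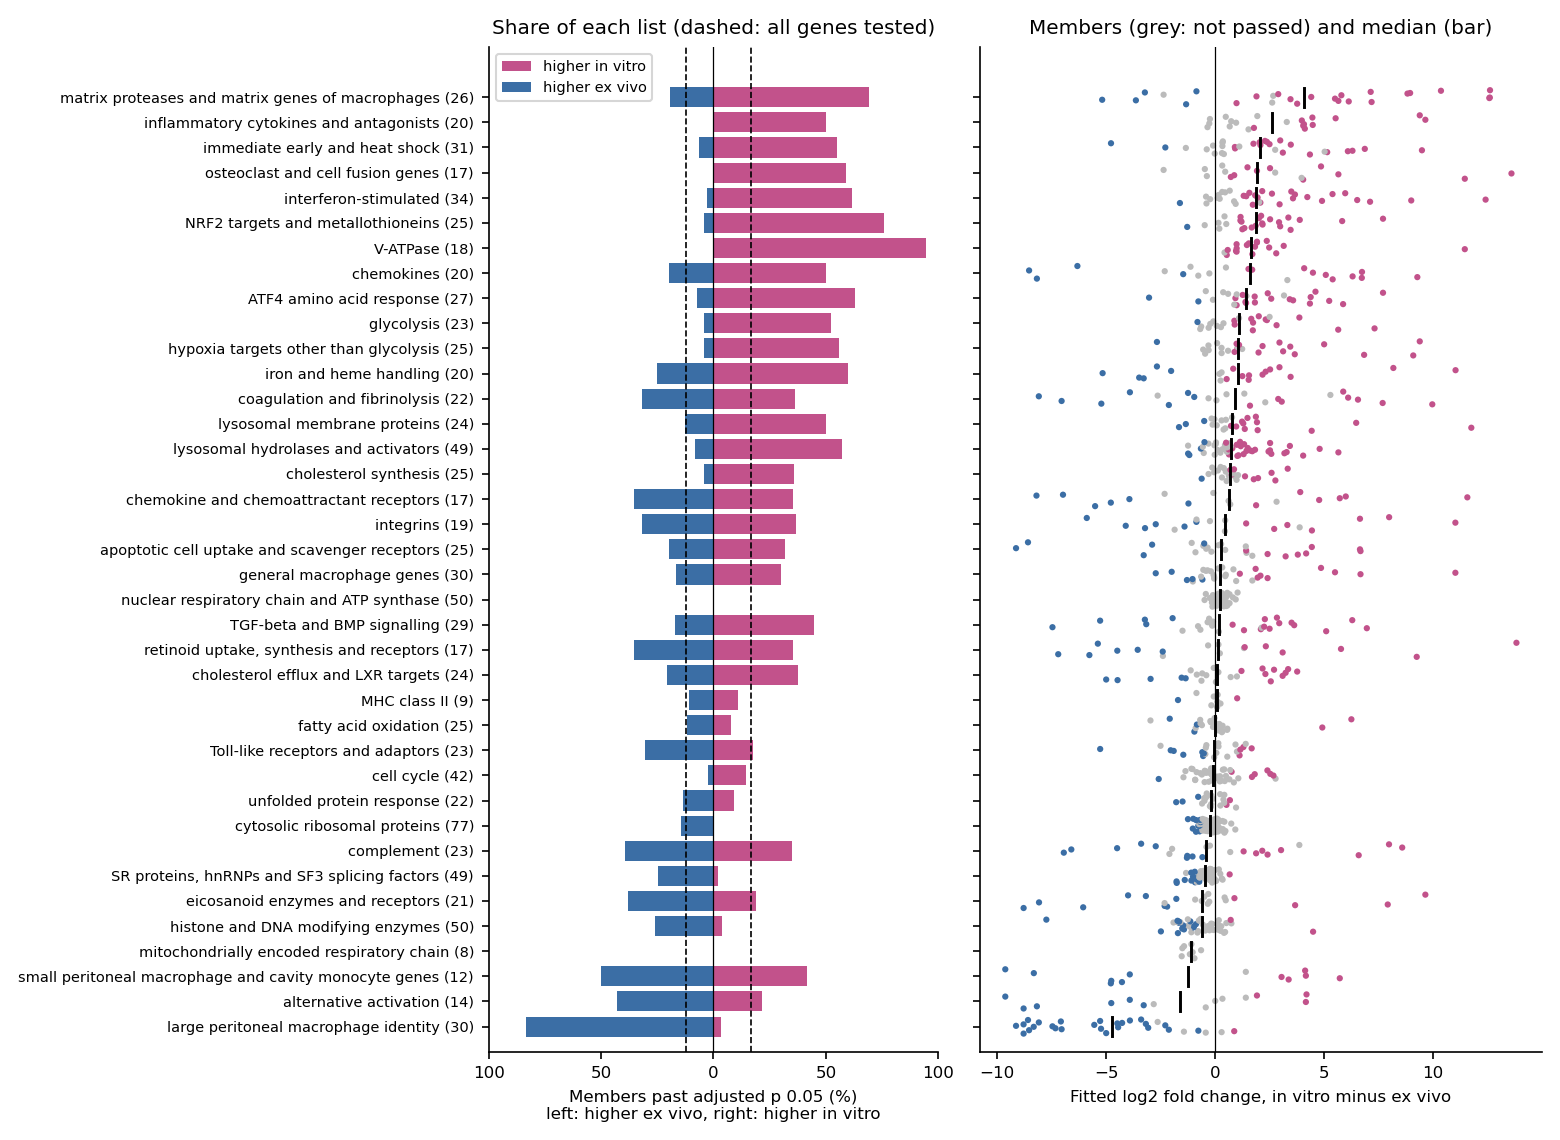
Left, the share of each of 38 gene lists that was higher in vitro (pink, right) or higher ex vivo (blue, left), with the number of members tested in brackets and dashed lines at the shares over all genes, 16.8% and 12.1%. Right, the fitted log2 fold change of each member, pink and blue where it passed and grey where it did not, with the list's median as a bar. V-ATPase, NRF2, matrix and ATF4 genes lie mostly to the right, and the identity genes of large peritoneal macrophages to the left.

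To show what the promoters of rising groups hold, RefSeq promoters (GRCm38.p6, 250 bases before to 50 after a gene's start) were searched on both strands for 1 textbook element per group. An element was searched as plain letters, with N for any base, and a match is a description of the sequence only. Shares of the lists below are over all members with a promoter, risen or not. Among members that rose, 3 of 12 V-ATPase, 3 of 23 hydrolase and 1 of 10 membrane protein genes held their element. So did 9 of 16 interferon-stimulated, 8 of 10 hypoxia and 4 of 12 glycolysis genes that rose. For ATF4, NRF2 and cholesterol genes that rose it was 4 of 15, 9 of 16 and 1 of 7. TCACGTGA, the core of the CLEAR element bound by TFEB, was in the promoters of 1.12% of 27025 gene symbols, in 3 of 12 V-ATPase genes with a promoter, in 3 of 40 hydrolase genes and in 2 of 20 membrane protein genes. Ctsd and Atp6v1a hold it, in capitals below, at chr7:142387778-142388077 and chr16:44139210-44139509, both on the minus strand and printed 5′ to 3′ along the gene. They are shown because Ctsd was the most counted gene of PM-LCs and Atp6v1a the most counted pump gene with a match.
Ctsd: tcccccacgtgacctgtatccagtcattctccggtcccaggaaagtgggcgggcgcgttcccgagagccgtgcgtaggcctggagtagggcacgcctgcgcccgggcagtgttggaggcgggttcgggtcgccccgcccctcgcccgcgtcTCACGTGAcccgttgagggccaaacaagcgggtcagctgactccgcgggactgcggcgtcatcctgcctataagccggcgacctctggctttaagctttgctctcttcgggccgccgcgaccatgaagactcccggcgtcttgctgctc
Atp6v1a: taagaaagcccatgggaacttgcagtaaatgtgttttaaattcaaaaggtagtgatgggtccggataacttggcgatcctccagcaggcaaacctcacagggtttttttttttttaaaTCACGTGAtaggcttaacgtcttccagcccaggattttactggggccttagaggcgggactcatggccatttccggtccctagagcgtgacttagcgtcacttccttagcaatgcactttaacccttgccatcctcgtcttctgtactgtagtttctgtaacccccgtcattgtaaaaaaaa
GAAANNGAAA, a core of the interferon-stimulated response element, was in 3.99% of symbols and in 16 of 25 interferon-stimulated genes with a promoter. Irgm1 (chr11:48871371-48871670, minus strand) and Bst2 (chr8:71537423-71537722, minus strand) are shown. They had the highest mean CPM in vitro among the members that rose and held a match. Each holds 2 overlapping copies. Bst2, the antiviral tether tetherin, rose from 115, 104 and 91.1 to 399, 459.7 and 167 CPM (log2 fold change 1.73 ± 0.36, adjusted p = 0.0122, 0.057 to 0.0721 without PM libraries 1, 2 or 3). The GTPase gene Irgm1 rose from 42.6, 85.1 and 44.7 to 253, 265 and 146 CPM (log2 fold change 1.95 ± 0.36, adjusted p = 0.00687).
Irgm1: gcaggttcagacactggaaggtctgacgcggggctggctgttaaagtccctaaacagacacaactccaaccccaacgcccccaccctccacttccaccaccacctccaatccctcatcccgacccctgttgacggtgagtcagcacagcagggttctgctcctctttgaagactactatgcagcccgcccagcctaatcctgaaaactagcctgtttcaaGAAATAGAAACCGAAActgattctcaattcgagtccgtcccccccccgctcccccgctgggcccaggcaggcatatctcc
Bst2: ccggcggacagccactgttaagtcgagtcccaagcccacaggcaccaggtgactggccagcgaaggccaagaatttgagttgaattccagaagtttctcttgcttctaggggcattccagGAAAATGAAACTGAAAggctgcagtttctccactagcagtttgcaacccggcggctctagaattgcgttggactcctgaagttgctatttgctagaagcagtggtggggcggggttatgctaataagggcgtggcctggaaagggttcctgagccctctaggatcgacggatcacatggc
ACGTGC, a core of the hypoxia response element, was in 6.68% of symbols, in 12 of 19 hypoxia genes and in 8 of 22 glycolysis genes, of which Slc2a1 is shown (chr4:119108495-119108794, plus strand). TTGCATCA, an element of ATF4, was in 1.03% of symbols and in 7 of 24 genes of the amino acid response, of which Atf3 is shown (chr1:191183284-191183583, minus strand). Both genes rose, with the values given below.
Slc2a1: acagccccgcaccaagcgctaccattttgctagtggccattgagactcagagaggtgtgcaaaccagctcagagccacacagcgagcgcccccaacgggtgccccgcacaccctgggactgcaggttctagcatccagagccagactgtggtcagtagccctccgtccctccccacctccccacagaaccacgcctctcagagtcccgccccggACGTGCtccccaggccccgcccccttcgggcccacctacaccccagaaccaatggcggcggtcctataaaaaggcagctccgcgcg
Atf3: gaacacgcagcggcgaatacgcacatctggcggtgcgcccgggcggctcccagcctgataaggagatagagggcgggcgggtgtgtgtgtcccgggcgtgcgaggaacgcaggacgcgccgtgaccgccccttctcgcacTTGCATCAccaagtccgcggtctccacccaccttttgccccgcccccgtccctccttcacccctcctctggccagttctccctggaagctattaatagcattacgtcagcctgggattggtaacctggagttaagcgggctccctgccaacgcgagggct
TGACNNNGC, the core of the antioxidant response element, was in 3781 of the 27025 symbols and in 10 of 22 NRF2 genes. TCACNCCAC, a sterol regulatory element, was in 1.44% of symbols and in 1 of 18 cholesterol genes.

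Interferon-stimulated genes were higher in the cultures. Of 34 tested, 21 rose and 1 fell, and the median log2 fold change was 1.89. Rsad2, the antiviral enzyme viperin, rose from 3.48, 3.31 and 3.42 to 264, 189.6 and 186 CPM (log2 fold change 5.97 ± 0.23, adjusted p = 2.63e-05). Ifit1, which binds foreign RNA, rose from 4.21, 3.39 and 2.88 to 117, 125 and 70.7 CPM (log2 fold change 4.90 ± 0.31, adjusted p = 8.82e-05) and Ifit2 from 0.575, 1.10 and 0.0492 to 409, 202 and 278 CPM (log2 fold change 8.997 ± 0.89, adjusted p = 0.000487). Irf7, the factor that amplifies the response, rose from 74.4, 80.01 and 59.5 to 1254, 987 and 300.2 CPM (log2 fold change 3.57 ± 0.51, adjusted p = 0.00249), and Isg15, a ubiquitin-like modifier, from 7.24, 7.27 and 5.63 to 138, 169 and 70.6 CPM (log2 fold change 4.23 ± 0.36, adjusted p = 0.000283). For Irf7, Isg15 and Ifit3, PM-LC library 3 was the lowest of the cultures, and it had the most Ifnb1. Ifit3, at 2.18, 2.06 and 1.03 and 254, 146 and 82.3 CPM, and Ifit3b, at 0 in every sorted library and 29.2, 14.5 and 9.86 CPM in vitro, are close copies on chromosome 19, so the split of reads between them is uncertain. Irf1 did not pass (adjusted p = 0.221). The member that fell was Gbp3, from 108, 183 and 127 to 54.8, 43.7 and 37.3 CPM (log2 fold change -1.62 ± 0.26, adjusted p = 0.00371). Without PM-LC library 2, 22 rose and 1 fell.

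Stress programmes divided. Of 25 NRF2 targets and metallothioneins tested out of 26, 19 rose and 1 fell, with a median log2 fold change of 1.86 [0 to 2 fell, PM library 2 and PM-LC library 2]. Fth1, the ferritin heavy chain, rose from 2658, 2896 and 3041 to 32430.2, 29711 and 32445 CPM (log2 fold change 3.46 ± 0.17, adjusted p = 3.33e-05), and Prdx1, a peroxiredoxin, from 396, 379.6 and 376 to 5672, 6349 and 4945 CPM (log2 fold change 3.88 ± 0.18, adjusted p = 3.03e-05). Srxn1, which repairs peroxiredoxins, rose from 25.1, 26.1 and 19.7 to 239, 231 and 256 CPM (log2 fold change 3.36 ± 0.19, adjusted p = 5.05e-05) and the heme oxygenase Hmox1 from 103, 136 and 119 to 568, 391 and 652 CPM (log2 fold change 2.17 ± 0.24, adjusted p = 0.000793). Gsr, the glutathione reductase, fell from 400.3, 395 and 334 to 142, 108 and 213 CPM (log2 fold change -1.28 ± 0.27, adjusted p = 0.0113, 0.0504 without PM library 2). Of 27 genes of the ATF4 amino acid response tested out of 30, 17 rose and 2 fell [1 to 2 fell, PM libraries 1 and 2 and PM-LC library 1]. Asns, the asparagine synthetase, rose from 1.30, 1.08 and 0.0246 to 35.3, 77.6 and 26.9 CPM (log2 fold change 5.87 ± 1.01, adjusted p = 0.00538), and Ddit3, the stress factor CHOP, from 6.87, 10.1 and 9.76 to 149, 141 and 29.4 CPM (log2 fold change 3.58 ± 0.60, adjusted p = 0.00478). Atf3 rose from 30.3, 30.4 and 48.6 to 713, 551 and 962 CPM (log2 fold change 4.35 ± 0.32, adjusted p = 0.000153) and Nupr1 fell from 190.2, 193 and 273 to 20.8, 38.1 and 21.1 CPM (log2 fold change -3.04 ± 0.31, adjusted p = 0.000583). Of 22 genes of the unfolded protein response 2 rose and 3 fell [0 to 2 rose, PM libraries 1, 2 and 3 and PM-LC libraries 1 and 3, and 2 to 8 fell, PM-LC libraries 2 and 3], and the chaperone Hspa5 rose from 847, 1013 and 935 to 1296, 1269 and 1898 CPM (log2 fold change 0.67 ± 0.21, adjusted p = 0.0481, 0.0553 to 0.159 without PM libraries 1, 2 or 3 or PM-LC libraries 1 or 3). Fth1 and Prdx1 have processed copies in the genome, and reads shared with them are uncertain.

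Cultures were held at 3% oxygen in high glucose, and genes of hypoxia and glycolysis were described with that in view. Of 25 hypoxia targets outside glycolysis tested out of 26, 14 rose and 1 fell [1 to 2 fell, PM-LC library 3], and of 23 glycolysis genes 12 rose and 1 fell [0 to 3 fell, PM libraries 1, 2 and 3 and PM-LC libraries 1, 2 and 3]. Ndrg1 rose from 0.727, 1.37 and 1.35 to 46.3, 35.2 and 29.8 CPM (log2 fold change 4.9996 ± 0.36, adjusted p = 0.000136), and Hilpda, a lipid droplet protein, from 19.9, 13.04 and 17.9 to 206, 179 and 168 CPM (log2 fold change 3.44 ± 0.22, adjusted p = 9.38e-05). Vegfa, the endothelial growth factor, was at 0.394, 0.835 and 0.541 CPM and 331, 265 and 606 CPM (log2 fold change 9.39 ± 0.52, adjusted p = 4.97e-05). Slc2a1, the glucose transporter GLUT1, rose from 16.6, 12.2 and 7.08 to 138, 175 and 208 CPM (log2 fold change 3.86 ± 0.36, adjusted p = 0.000374). The hexokinase gene Hk3 rose from 92.9, 99.9 and 97.96 to 775, 498 and 776 CPM (log2 fold change 2.82 ± 0.22, adjusted p = 0.000202). Aldoa went from 638, 654 and 655 to 2118, 2233 and 2098 CPM (log2 fold change 1.73 ± 0.15, adjusted p = 0.000267). The phosphofructokinase Pfkl fell from 285, 314 and 228 to 112, 192 and 166 CPM (log2 fold change -0.81 ± 0.24, adjusted p = 0.0424, 0.0725 to 0.131 without PM libraries 1, 2 or 3 or PM-LC library 1). None of 50 nuclear genes of the respiratory chain and ATP synthase passed in either direction with edgeR, and their log2 fold changes lay between -0.49 and 1.03. At an unadjusted p under 0.05 there were 6, all higher in vitro, which holds for 22.9% of all genes tested, DESeq2 called 4 and limma-voom 1, and without PM-LC library 3, 21 rose with edgeR. Of 13 mitochondrially encoded genes 5 had no count and 8 were tested, with a median log2 fold change of -1.13. None of the 8 passed with edgeR, 5 were lower in vitro at an unadjusted p under 0.05, as were 18.2% of all genes tested, DESeq2 and limma-voom called 5 each, and without PM-LC library 3 edgeR called 7, all lower in vitro. Of 25 fatty acid oxidation genes 2 rose and 3 fell [1 to 2 rose, PM libraries 1, 2 and 3], and the largest rise was that of the regulator Pparg, from 0.121, 1.497 and 1.13 to 92.9, 43.00 and 77.3 CPM (log2 fold change 6.25 ± 0.79, adjusted p = 0.00137). Oxygen, glucose, growth factor, age in culture and loss of the cavity differed together between the groups, and their parts cannot be told apart.

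Sterol genes rose in part. Of 25 cholesterol synthesis genes tested out of 26, 9 rose and 1 fell [5 to 9 rose, PM libraries 1, 2 and 3, and 0 to 2 fell, PM libraries 1, 2 and 3 and PM-LC libraries 1 and 3]. Sqle, the squalene epoxidase, rose from 4.63, 5.23 and 2.07 to 22.1, 51.2 and 46.4 CPM (log2 fold change 3.33 ± 0.47, adjusted p = 0.00237) and Hmgcs1 from 17.7, 18.9 and 17.95 to 39.6, 40.7 and 60.6 CPM (log2 fold change 1.37 ± 0.23, adjusted p = 0.0044). Of 24 genes of cholesterol efflux and LXR targets, 9 rose and 5 fell [3 to 7 fell, PM libraries 2 and 3]. Nr1h3, the sterol-sensing receptor LXR-alpha, rose from 5.09, 4.001 and 5.63 to 108, 50.9 and 40.7 CPM (log2 fold change 3.76 ± 0.42, adjusted p = 0.000857), the exporter Abcg1 from 27.98, 34.96 and 29.7 to 211, 109.9 and 222 CPM (log2 fold change 2.55 ± 0.30, adjusted p = 0.00099) and the lipoprotein lipase Lpl from 1609.5, 1395 and 1268 to 7753, 4149 and 9197 CPM (log2 fold change 2.30 ± 0.31, adjusted p = 0.00186). Abca1 spread over the cultures, with 100.2, 24.5 and 327 CPM, and did not pass.

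Iron genes changed at import, export and transport. Of 20 genes tested out of 22, 12 rose and 5 fell. Slc40a1, the iron exporter ferroportin, was at 0.0606, 0.295 and 0 CPM ex vivo and 348, 126 and 308 CPM in vitro (log2 fold change 11.03 ± 0.92, adjusted p = 0.00025). Tfrc, the transferrin receptor, rose from 5.84, 11.2 and 7.35 to 67.3, 42.7 and 79.00 CPM (log2 fold change 2.95 ± 0.35, adjusted p = 0.00104), and Trf, transferrin itself, fell from 690.3, 803 and 754 to 71.8, 86.7 and 193 CPM (log2 fold change -2.67 ± 0.39, adjusted p = 0.00257). Cd163, the haemoglobin scavenger receptor, fell from 36.8, 69.1 and 51.3 to 5.54, 4.61 and 5.998 CPM (log2 fold change -3.28 ± 0.29, adjusted p = 0.000321).

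Of 20 inflammatory cytokines and antagonists tested out of 25, 10 rose and none fell, and the median log2 fold change was 2.61 [5 to 12 rose, PM libraries 1, 2 and 3, and 0 to 1 fell, PM-LC library 3]. Osm, oncostatin M, rose from 12.7, 9.21 and 10.03 to 183, 141 and 178 CPM (log2 fold change 3.98 ± 0.22, adjusted p = 4.97e-05). The suppressive cytokine Il10 rose from 0.394, 0.540 and 0.639 to 9.39, 3.22 and 14.8 CPM (log2 fold change 4.11 ± 0.65, adjusted p = 0.00371). Tnf was at 26.6, 20.8 and 437 CPM in PM-LC libraries 1 to 3 against 4.51, 2.38 and 3.64 CPM (log2 fold change 5.53 ± 1.31, adjusted p = 0.0186, 0.0756 to 0.086 without PM libraries 1, 2 or 3), and was carried by library 3 together with Il1a and Tnfaip3. Il1rn, the interleukin-1 receptor antagonist, was at 17.3, 133 and 22.9 CPM and was carried by library 2, and its adjusted p moved from 0.0113 to 0.00098 when that library was left out and to 0.0502 to 0.0639 without 1 sorted library. Il6 did not pass (adjusted p = 0.562). Of 20 chemokines tested out of 24, 10 rose and 4 fell [5 to 11 rose, PM libraries 1, 2 and 3]. Of the 10 that rose, Ccl2 and Ccl7 were carried by PM-LC library 2, and Cxcl1 and Cxcl2 by PM-LC library 3. Ccl7 did not pass without library 2 (adjusted p = 0.0934). Ccl3 rose from 3.36, 1.06 and 1.65 to 71.7, 113 and 455 CPM (log2 fold change 6.73 ± 0.92, adjusted p = 0.00199) and its neighbour on chromosome 11, Ccl4, from 0.363, 0.221 and 1.18 to 119, 188 and 805 CPM (log2 fold change 9.28 ± 1.13, adjusted p = 0.0012), both highest in PM-LC library 3. Ccl24, an eosinophil attractant, fell from 549, 359 and 292 to 2.12, 0.195 and 1.79 CPM (log2 fold change -8.18 ± 0.84, adjusted p = 0.000578). Pf4 fell from 3598, 2718 and 2567 to 30.7, 38.4 and 41.7 CPM (log2 fold change -6.32 ± 0.26, adjusted p = 2.63e-05). Among 17 receptors tested out of 18, 6 rose and 6 fell. The formyl peptide receptor Fpr1 went from 97.1, 129 and 122 to 0.316, 0.0834 and 0.744 CPM (log2 fold change -8.20 ± 0.65, adjusted p = 0.000194). Cxcr4 went from 0.606, 0.761 and 0.713 to 58.4, 30.4 and 44.5 CPM (log2 fold change 5.99 ± 0.35, adjusted p = 5.79e-05). Cxcr3 had no count ex vivo and 15.2, 8.01 and 6.84 CPM in vitro, at least 126-fold above the floor.

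Of 31 immediate early and heat shock genes tested out of 33, 17 rose and 2 fell [1 to 5 fell, PM libraries 1 and 2 and PM-LC libraries 1 and 3]. Fos went from 17.99, 12.6 and 12.9 to 788, 596 and 2039 CPM (log2 fold change 6.30 ± 0.57, adjusted p = 0.000333), Jun from 28.9, 29.7 and 32.6 to 215, 173 and 623 CPM (log2 fold change 3.47 ± 0.51, adjusted p = 0.00268) and the phosphatase gene Dusp1 from 289, 407 and 245 to 2036, 1573 and 4480.0 CPM (log2 fold change 3.10 ± 0.44, adjusted p = 0.00232). Egr1 rested on library 3 and did not pass (adjusted p = 0.0615). Klf2, a factor that keeps macrophages quiescent, fell from 857, 979.8 and 994 to 24.4, 40.8 and 37.6 CPM (log2 fold change -4.78 ± 0.26, adjusted p = 4.91e-05). For Fos, Jun and Dusp1 all 3 cultures were above the sorted libraries and PM-LC library 3 was the highest. The time that cells of either group spent in handling before lysis was not tested. Of 23 Toll-like receptors and adaptors tested out of 25, 4 rose and 7 fell [1 to 8 rose, PM libraries 1 and 3 and PM-LC libraries 1, 2 and 3, and 3 to 9 fell, PM libraries 1, 2 and 3 and PM-LC library 1]. Tlr2 and Tlr4 did not pass (adjusted p = 0.384 and 0.781). The adaptor Myd88 fell from 103, 97.5 and 89.8 to 70.3, 61.5 and 61.1 CPM (log2 fold change -0.59 ± 0.16, adjusted p = 0.0279, 0.0539 to 0.112 without PM libraries 1, 2 or 3 or PM-LC library 1).

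**Figure D4:**
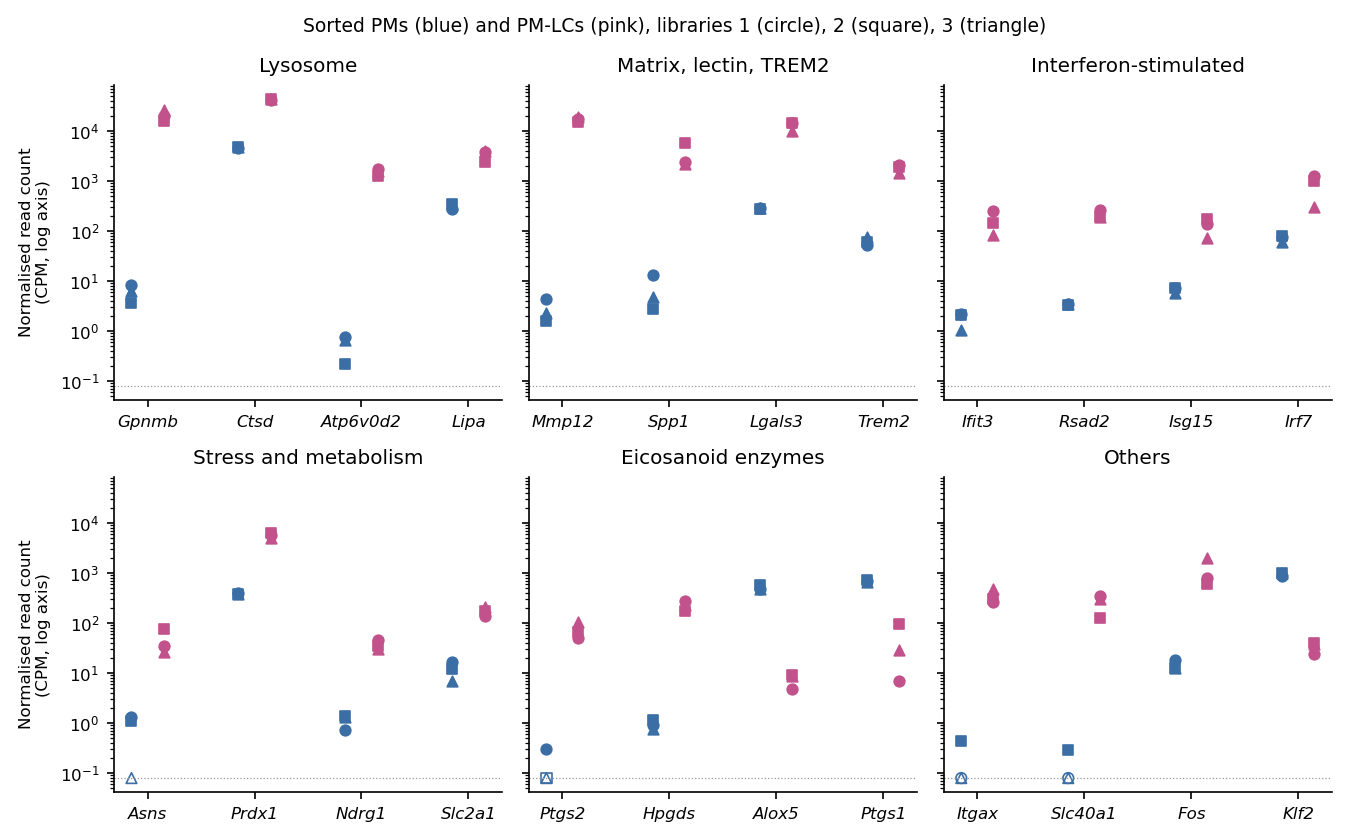
Normalised read count of 24 genes in the 3 sorted (blue) and 3 cultured (pink) libraries, in 6 groups, on a log axis, with circles, squares and triangles for libraries 1, 2 and 3. Hollow symbols at the dotted line are values under the mean floor of 3 counts. Groups do not overlap for any gene shown, and Alox5, Ptgs1 and Klf2 are the genes that are lower in culture.

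Surface and uptake genes of macrophages in general moved in both directions. Of 30 such genes 9 rose, 5 fell and 16 did not pass [4 to 8 fell, PM-LC library 3]. Itgax, the integrin CD11c, was at 0.0303, 0.442 and 0 CPM ex vivo and 259, 303 and 479 CPM in vitro (log2 fold change 11.02 ± 0.99, adjusted p = 0.000334). Trem2, a lipid receptor, rose from 52.3, 60.8 and 75.2 to 2094, 1925 and 1436 CPM (log2 fold change 4.86 ± 0.25, adjusted p = 4.17e-05), Cd68 from 782, 721 and 716 to 2959, 2696 and 2903 CPM (log2 fold change 1.95 ± 0.15, adjusted p = 0.000194) and Gas6, a bridge between dying cells and their receptors, from 3.39, 8.30 and 5.56 to 705, 532 and 521 CPM (log2 fold change 6.67 ± 0.41, adjusted p = 7.41e-05). Of 25 genes of apoptotic cell uptake and scavenging tested out of 28, 8 rose and 5 fell [4 to 10 fell, PM-LC library 3]. Mfge8, a second bridging protein, rose from 133, 119.8 and 102 to 1741, 2032 and 3902 CPM (log2 fold change 4.43 ± 0.36, adjusted p = 0.000229) and its integrin partner Itgb5 from 4.94, 4.76 and 3.25 to 396, 324 and 574 CPM (log2 fold change 6.64 ± 0.34, adjusted p = 3.87e-05). The receptor Mertk did not pass, at 108, 30.5 and 181 CPM against 116, 163 and 128 CPM (adjusted p = 0.668). Clec7a, the glucan receptor dectin-1, rose from 126, 112 and 90.7 to 2657, 1736 and 1530.3 CPM (log2 fold change 4.17 ± 0.29, adjusted p = 0.000115). Among 19 integrins tested out of 22, 7 rose and 6 fell [4 to 8 rose, PM library 3, and 3 to 8 fell, PM library 2 and PM-LC library 1], with Itgb7 at 197, 286 and 277 and 5.02, 6.48 and 1.30 CPM (log2 fold change -5.89 ± 0.61, adjusted p = 0.00061) and Itga6 at 1269.9, 1574 and 1275 and 109, 59.5 and 273 CPM (log2 fold change -3.22 ± 0.54, adjusted p = 0.00492). MHC class II genes did not move as a group, with 1 of 9 up and 1 down [0 to 1 rose, PM libraries 1, 2 and 3], and H2-Aa stood at 53.5, 143 and 156 CPM ex vivo and 151, 55.98 and 211 CPM in vitro (adjusted p = 0.77).

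Small peritoneal macrophage and cavity monocyte genes divided as well, with 5 of 12 tested higher and 6 lower in vitro [3 to 5 rose, PM libraries 2 and 3]. Ccr2, the monocyte chemokine receptor, fell from 22.3, 23.3 and 54.6 to 0.373, 0.306 and 2.88 CPM (log2 fold change -4.79 ± 0.94, adjusted p = 0.00926). The folate receptor Folr2 rose from 24.8, 57.9 and 46.5 to 1271, 604 and 438 CPM (log2 fold change 4.16 ± 0.52, adjusted p = 0.00129) and the aspartic protease Napsa from 5.66, 4.96 and 5.95 to 91.3, 110.2 and 88.3 CPM (log2 fold change 4.13 ± 0.20, adjusted p = 3.55e-05). Of 14 genes of alternative activation tested out of 20, 3 rose and 6 fell. Tgm2, a transglutaminase, rose from 9.66, 12.2 and 12.3 to 203, 193 and 229 CPM (log2 fold change 4.19 ± 0.20, adjusted p = 3.03e-05). Mgl2 fell from 15.2, 14.95 and 15.5 to 0, 1.17 and 0.139 CPM (log2 fold change -5.13 ± 1.19, adjusted p = 0.0171, 0.063 to 0.0701 without PM libraries 1, 2 or 3).

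Matrix genes had the highest median of the 38 pathway lists. Of 26 matrix proteases and matrix genes of macrophages 18 rose and 5 fell, with a median log2 fold change of 4.08, and 2.99 without PM-LC library 2 [10 to 19 rose, PM libraries 1, 2 and 3]. Of the 18 that rose, 5 were carried by that library, namely Mmp14, Timp1, Col4a1, Sparc and Timp3, and Mmp14 and Timp1 did not pass without it (adjusted p = 0.0544 and 0.0834). Spp1, osteopontin, rose from 13.3, 2.68 and 4.72 to 2352, 5693 and 2126 CPM (log2 fold change 8.95 ± 0.87, adjusted p = 0.000466). Fibronectin (Fn1), the third most counted gene of sorted PMs, fell from 15608, 18629 and 14439 to 88.1, 590.1 and 657 CPM (log2 fold change -5.19 ± 0.74, adjusted p = 0.00243). Ecm1 fell from 5100.0, 4917 and 4761 to 350.1, 262 and 574 CPM (log2 fold change -3.64 ± 0.32, adjusted p = 0.000289). In TGF-beta and BMP signalling 13 of 29 genes tested rose and 5 fell. Id3, an inhibitor of helix-loop-helix factors, rose from 5.84, 3.71 and 4.33 to 795, 542 and 388 CPM (log2 fold change 6.96 ± 0.39, adjusted p = 4.97e-05). The inhibitory Smad7 rose from 1.91, 2.31 and 1.21 to 15.7, 20.3 and 25.6 CPM (log2 fold change 3.51 ± 0.36, adjusted p = 0.000575). Smad3, which carries the TGF-beta signal, fell from 49.2, 78.1 and 60.5 to 5.08, 5.53 and 10.3 CPM (log2 fold change -3.16 ± 0.35, adjusted p = 0.000824). The induced gene Tgfbi fell from 675, 766 and 681 to 30.8, 98.8 and 96.9 CPM (log2 fold change -3.23 ± 0.44, adjusted p = 0.00202).

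By the naming rule, the genes with the largest rise were Des, Npy, Stra6l, Gm14461, Dcstamp, Nes, Arhgap22, Col6a1, Mmp13, Mmp12, Pdpn, Speg, Gpnmb, Atp6v0d2 and Flrt2. Des, Stra6l, Gm14461, Dcstamp, Nes, Arhgap22 and Col6a1 had no count in any sorted library, so their folds are lower bounds. Npy, the neuropeptide Y gene, was at 0.0303, 0 and 0 CPM ex vivo and 342, 413 and 69.03 CPM in vitro. Pdpn, the mucin-like podoplanin, was at 0, 0.0245 and 0 and 57.9, 87.3 and 63.3 CPM, and Speg, a kinase gene of striated muscle, at 0.0606, 0 and 0 and 97.9, 99.04 and 75.6 CPM. Nes, the intermediate filament nestin, had 19.2, 36.2 and 63.8 CPM in vitro, at least 500.1-fold above the floor, and Gm14461, a lincRNA at chr2:78237547-78302230 (mm10, plus strand), had 59.9, 45.4 and 24.99 CPM, at least 547-fold. Des and Col6a1 were different, with 0.747, 315 and 73.2 CPM and 1.67, 80.6 and 26.3 CPM in PM-LC libraries 1 to 3, both highest in library 2 and lowest in library 1. Arhgap22 had 43.9, 40.7 and 28.5 CPM, at least 474-fold above the floor. Without library 2, Des and Col6a1 both still passed (adjusted p = 0.0214 and 0.00812). The call of Des ended when any 1 sorted library was left out (adjusted p = 0.0778 to 0.0801).

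Cell cycle genes depended on PM-LC library 2. With it, 6 of 42 rose and 1 fell [3 to 5 rose, PM libraries 1 and 3 and PM-LC library 2, and 1 to 12 fell, PM-LC library 2], and without it 3 rose and 12 fell, with the median log2 fold change at -0.08 and -0.93. Mki67, a proliferation marker, was at 10.42, 8.98 and 9.79 CPM ex vivo and 0.201, 9.45 and 1.67 CPM in PM-LC libraries 1 to 3 (adjusted p = 0.37, and 0.0144 without library 2). Cdkn1a, the cell cycle inhibitor p21, rose in every culture, from 87.4, 63.2 and 79.05 to 521, 554 and 389 CPM (log2 fold change 2.67 ± 0.22, adjusted p = 0.000232). Pcna, the DNA polymerase clamp, rose from 26.7, 20.6 and 18.2 to 134, 98.01 and 112 CPM (log2 fold change 2.40 ± 0.22, adjusted p = 0.000383). Ccnd3 fell from 204, 191 and 189 to 23.1, 50.2 and 23.6 CPM (log2 fold change -2.59 ± 0.33, adjusted p = 0.00151).

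Genes of RNA and chromatin were mostly lower in vitro where they passed. Of 49 splicing factors 12 fell and 1 rose [0 rose, PM libraries 1, 2 and 3 and PM-LC libraries 1, 2 and 3, and 4 to 24 fell, PM libraries 1, 2 and 3 and PM-LC libraries 1 and 3], of 77 ribosomal protein genes 11 fell and none rose [0 to 1 rose, PM-LC library 3, and 0 to 16 fell, PM libraries 1, 2 and 3 and PM-LC library 1], and of 50 histone and DNA modifying enzymes 13 fell and 2 rose [1 to 2 rose, PM libraries 1, 2 and 3 and PM-LC libraries 1 and 3, and 5 to 25 fell, PM libraries 1, 2 and 3 and PM-LC libraries 1 and 3]. The ribosomal share of 11 in 77 is close to the 12.1% of all genes. Srsf2, a splicing activator, fell from 153, 118 and 106 to 49.7, 76.7 and 70.5 CPM (log2 fold change -0.94 ± 0.23, adjusted p = 0.0218, 0.0596 to 0.0897 without PM libraries 1 or 2 or PM-LC library 1). The DNA methyltransferases parted, with Dnmt3a at 30.6, 27.9 and 31.9 CPM ex vivo and 786, 677 and 569 CPM in vitro (log2 fold change 4.49 ± 0.20, adjusted p = 2.81e-05) and Dnmt3b at 6.18, 4.86 and 6.44 and 0.747, 1.14 and 1.21 CPM (log2 fold change -2.49 ± 0.43, adjusted p = 0.00519). Ribosomal proteins have many processed copies in the genome, and reads shared with them are uncertain.

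To learn which changes were particular to peritoneal cells, the culture difference of PMs was tested against the mean of the same difference in MG, KCs and AMs, as an interaction over all 24 libraries and 17408 genes. Of these, 6.28% moved more toward in vitro in PMs, 6.96% more toward ex vivo, and 13.2% in either direction. AM-LCs were grown with GM-CSF at atmospheric oxygen and deprived of glucose, and MG-LCs also had IL-34. Of the 30 identity genes 17 differed, all more toward ex vivo in PMs. They were listed for their level in sorted PMs, and a gene with few or no counts in another sorted population cannot fall there, so this direction followed from the choice of genes and is a description. Their median culture difference was -4.77 in PMs, 4.93 in MG, -3.62 in KCs and 0.94 in AMs. Fitted differences of genes with no or few counts in a group depend on the prior count. Gata6 had a difference of -3.08 in PMs against 8.0001, 4.13 and 5.08 in MG, KCs and AMs (interaction -8.82, adjusted p = 0.00706). Among eicosanoid genes 11 of 23 moved more toward ex vivo and 2 more toward in vitro. Alox5 had a difference of -6.06 in PMs against -1.93, 2.27 and -2.11 (interaction -5.47, adjusted p = 0.000872), and Hpgds rose by 7.92 in PMs against -0.84, 2.31 and 2.62 (interaction 6.56, adjusted p = 1.24e-06).

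Of 33 immediate early and heat shock genes 12 were more toward in vitro in PMs and 1 more toward ex vivo. Fos differed by 6.29 in PMs, 1.62 in MG, 3.33 in KCs and -1.98 in AMs (interaction 5.30, adjusted p = 0.000311), and Klf2 by -4.78 in PMs, 1.89 in MG, -0.50 in KCs and -0.86 in AMs (interaction -4.96, adjusted p = 5.01e-06). Of 49 hydrolases 10 were more toward in vitro and 4 more toward ex vivo, and Tfeb had an interaction of 2.05 (adjusted p = 0.000825), with 1.48 in PMs and -0.94, 0.002 and -0.79 in the others. For the V-ATPase 4 of 18 genes were more toward in vitro, with medians of 1.63 in PMs, 1.16 in MG, 1.09 in KCs and 1.13 in AMs. Atp6v0d2 was among the 4, at 11.46 in PMs, 8.65 in MG, 2.43 in KCs and 0.52 in AMs (interaction 7.59, adjusted p = 0.000199). Of 77 ribosomal protein genes 44 were more toward ex vivo in PMs, with medians of -0.26 in PMs, 1.86 in MG, 0.79 in KCs and 0.67 in AMs. Of 23 glycolysis genes 8 were more toward ex vivo and 3 more toward in vitro, with medians of 1.09 in PMs, 2.56 in MG, 1.54 in KCs and 0.66 in AMs.

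**Figure D5:**
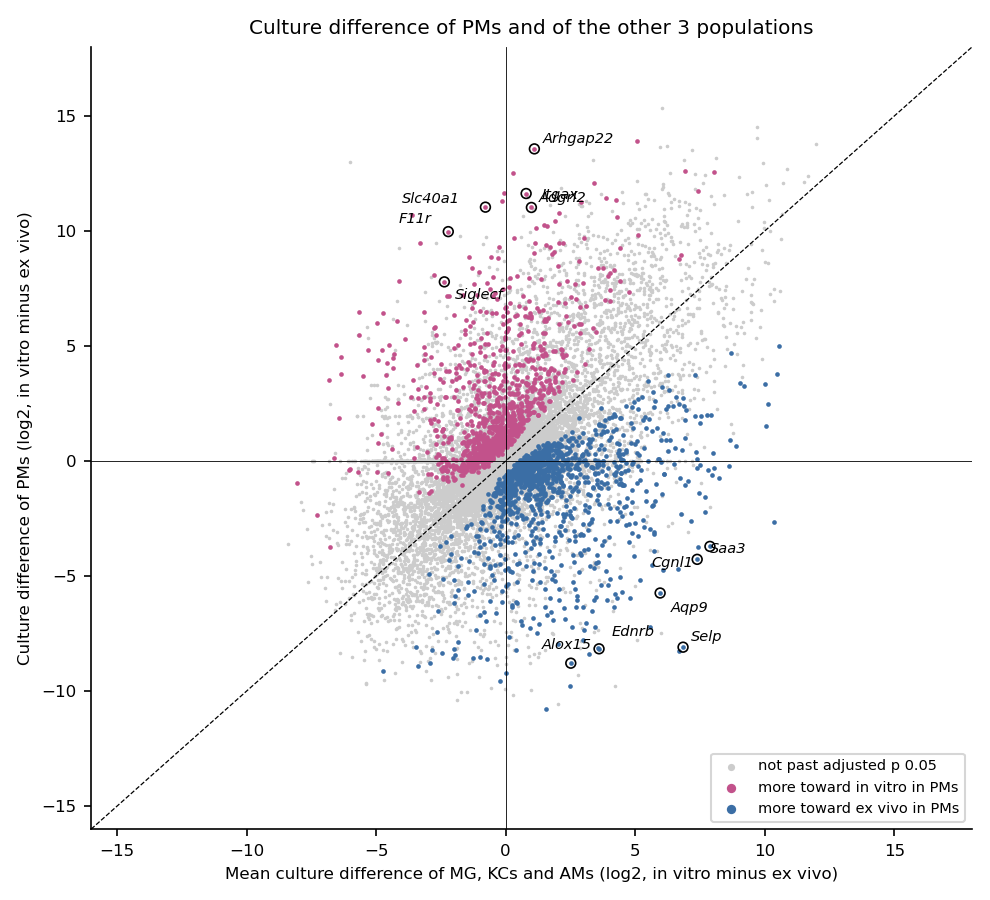
Culture difference of PMs against the mean culture difference of MG, KCs and AMs for 17408 genes, both in log2 units, in vitro minus ex vivo, with the dashed line where they are equal. Pink and blue genes passed the interaction test, and circles mark the 6 named genes of each direction. Itgax, Slc40a1, Arhgap22, Adgrl2, F11r and Siglecf lie far above the line, and Selp, Alox15, Ednrb, Aqp9, Saa3 and Cgnl1 far below it.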

How the data were processed

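RNA of 24 libraries, 6 of them peritoneal, was sequenced in bulk. The deposited values are raw read counts per gene, which the authors made from single NextSeq 2000 reads of SMARTer Ultra Low Input and Nextera XT libraries, trimmed with Trimmomatic and counted with STAR on mm10. The submitters' processing notes also name hg19 and other tool versions. The depth was 31369864 to 47105111 counts per library, and a floor of 3 counts was 0.0697 to 0.0908 CPM. Floors cover counting error only.

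Groups were taken from the labels. The counts were fitted with edgeR 4.0.16 (R 4.3.3), with TMM scaling, filterByExpr at a minimum count of 10 and the quasi-likelihood test over the 6 peritoneal libraries, 3 per group, with Benjamini-Hochberg adjustment over all 13581 genes. Printed CPM are on TMM-scaled library sizes. The interaction used all 24 libraries in 8 groups. Tests on data made with known changes recovered 47 of 98 genes changed by 2 and 68 of 92 changed by 3 on the log2 scale, and called 8 of 12975 unchanged ones, among the 13165 genes of the peritoneal comparison that were run. The made data held a far smaller share of changed genes than the 28.9% called in the real comparison, so these rates need not hold for it. Alternatives were limma-voom (limma 3.58.1), DESeq2 1.42.0, RLE size factors, other filters, the replicate number as a block, 1 model of all libraries and each library left out. Named genes are the markers of the population, in each list the members with the largest change among those that passed and those with the highest CPM, the 15 genes with the largest change per direction at an average log2 CPM above 4, without overlap and without a library that carries them, the 10 with the most counts per group, the 12 highest that PM-LC library 2 carried and the 6 with the largest interaction per direction. For the interaction, only genes with a symbol, an average log2 CPM above 4 and a passing difference between PM-LCs and PMs were ranked. Further members, among them those that did not pass, were named after their values were seen. Members and lists were chosen with earlier results of these data known. The lists hold 1000 genes in 38 pathway lists, 76 of them in more than 1, and 13 lists of other cell types. Promoters are RefSeq's on GRCm38.p6.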

Additional observations from a re-analysis of the deposited data

Results flagged for a closer look

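Genes were singled out where a test of the difference itself, the culture difference of PMs minus the mean of that in MG, KCs and AMs, passed and was among the 6 largest of the genes ranked in its direction. Ranked were only genes with a symbol, an average log2 CPM above 4 and a passing difference between PM-LCs and sorted PMs. These were 520 genes toward in vitro and 402 toward ex vivo. Values are log2 units from edgeR over all 24 libraries, and they depend on the prior count where a group has few or no counts. Toward in vitro in PMs were Arhgap22 (12.46, adjusted p = 0.000191), F11r (12.19, adjusted p = 2.1e-06), Slc40a1 (11.82, adjusted p = 7.99e-06), Adgrl2 (10.84, adjusted p = 1.53e-07), Siglecf (10.16, adjusted p = 5.28e-05) and Itgax (10.03, adjusted p = 3.31e-05). F11r, a junctional adhesion molecule, was carried by PM-LC library 2 at 1.87, 51.2 and 9.32 CPM in PM-LC libraries 1 to 3. Siglecf encodes a protein used to sort AMs and is no finding there. Slc40a1 was at 0.0606, 0.295 and 0 CPM in sorted PMs and 348, 126 and 308 CPM in PM-LCs, and differed by 0.05 in MG, -3.36 in KCs and 0.97 in AMs. Adgrl2, a latrophilin gene, had 8.50, 5.87 and 15.2 CPM in PM-LCs and Arhgap22, a GTPase regulator, 43.9, 40.7 and 28.5 CPM, with no count of either in sorted PMs. The 6 genes had mean levels of 0 to 0.175 CPM in sorted PMs, on the scale of all 24 libraries. Means in cultured PMs, MG, KCs and AMs were 41.8, 29.2, 58.4 and 4.35 CPM for Arhgap22 and 22.95, 30.5, 42.9 and 121 for F11r. Slc40a1 had 289, 367, 573 and 23.04 CPM and Adgrl2 10.9, 71.8, 29.97 and 73.1. Siglecf had 20.7, 1.76, 4.18 and 179 CPM and Itgax 382, 67.1, 60.1 and 1305. Each was thus higher in at least 1 other culture than in PM-LCs.

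Toward ex vivo in PMs were Selp (-14.94, adjusted p = 0.000595), Ednrb (-11.77, adjusted p = 4.03e-06), Aqp9 (-11.70, adjusted p = 0.000151), Saa3 (-11.67, adjusted p = 0.00916), Cgnl1 (-11.60, adjusted p = 2.33e-06) and Alox15 (-11.30, adjusted p = 0.000656). Aqp9, a channel for glycerol and water, fell from 62.5, 46.3 and 59.6 to 1.09, 1.22 and 0.837 CPM in peritoneal cells and differed by 10.57, 3.55 and 3.76 in MG, KCs and AMs. Cgnl1, a junction protein gene, fell from 298, 308 and 290.2 to 17.7, 14.96 and 36.1 CPM.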

How the results depend on the processing

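The counts over all genes moved by less than 1.5 times under limma-voom, DESeq2, RLE size factors, other filters, the block and the model of all 24 libraries. With a log2 fold change over 1.5 as well, 1379 genes were higher in vitro and 1028 higher ex vivo. As 1 library at a time was left out, 1279 to 2787 genes were higher in vitro and 795 to 2646 higher ex vivo, the lowest without a sorted library. The corresponding counts of the interaction were 731 to 1273 toward in vitro and 872 to 1543 toward ex vivo. At 3 times in place of 5, the 3 PM-LC libraries carried 32, 312 and 50 genes and PM libraries 2 and 3 carried 2 and 1, and at 10 times PM-LC libraries 2 and 3 carried 69 and 9. Of 1326 counts of list members under an alternative, 237 moved by more than 1.5 times or from or to 0, among them 15 of 102 with limma-voom. With limma-voom 0 fibroblast and 0 smooth muscle markers rose, and 2 mesothelium markers rose and 1 fell. Of matrix genes 11 rose with it, of chemokines 5 and of coagulation genes 4. Of the 198 named genes that passed, 150 passed in every setting that tested them. Among 2938 values of named genes under an alternative, 2694 kept direction and side of the threshold and 18 changed sign, all of genes that did not pass. Abca1 turned to -0.62 with limma-voom and -0.58 with the block, and ranged from -1.26 to 0.49 as 1 library was left out. The same range was -0.092 to 0.14 for F7, -0.21 to 0.59 for H2-Aa, -0.99 to 0.055 for Mertk and -0.091 to 0.42 for Tlr4. Ighm turned to -0.63 with the block and ranged from -1.75 to 2.41, and Igkc to -0.16 with limma-voom and -0.96 with the block, with -2.23 to 3.03. Il6 turned to -0.32 with limma-voom. The cause was not tested.

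The sorted and cultured libraries of 1 number were not treated as pairs, since no label ties them and their deviations correlated at -0.139, -0.048 and 0.036. With the replicate number as a block 1604 genes were higher in vitro and 1198 higher ex vivo.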
